A study of Rattus norvegicus with 8 samples.

Results

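Transcripts for the nuclear-encoded subunits of respiratory complex I were followed in rat diaphragm. The members were the genes whose symbol is Nduf, 1 of the letters a, b, c, s or v, and digits only, with a summed count of at least 80 over the 8 libraries. This gave 33 of 17055 genes in the count table, and no gene fitted the name pattern with a lower sum: the nearest to the limit was Ndufs6, with 2033 counts. Of the 33, 7 encode core subunits and the other 26 were taken as accessory, among them Ndufa4, now counted with cytochrome c oxidase. Assembly factors and the acyl carrier subunit Ndufab1 lie outside the pattern. Ndufa3, Ndufa13, Ndufb1, Ndufc1 and the subunits encoded by mitochondrial DNA had no row in the count table under the names searched, and were not analysed here.

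Complex I, or NADH:ubiquinone oxidoreductase, takes electrons from NADH, passes them along a chain of iron-sulphur clusters to ubiquinone, and pumps protons across the inner mitochondrial membrane. The core subunits carry the flavin, the clusters and the quinone site, and the accessory subunits surround and stabilise them. The N module oxidises NADH, the Q module reduces ubiquinone and the membrane arm, with a proximal and a distal part, holds the proton channels. In the diaphragm, a muscle that contracts with each breath, mitochondria supply most of the ATP for breathing.

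The animals were Sprague-Dawley rats, sampled 16 weeks after chest surgery, with 4 in each group and 1 library per animal. In the MI group (myocardial infarction) the left anterior descending coronary artery was ligated near the left atrium through an opened chest. The Sham group went through thoracotomy under the same anaesthesia and ventilation but without ligation, so that both groups carry the effects of the operation. The labels name no allele, transgene, drug or sex, and give the age only as the time since surgery. The MI libraries are replicates 1 to 4 and the Sham libraries replicates 5 to 8. Because each is a separate animal, the p-values set the difference between groups against the spread between animals.

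The libraries held between 7941402 and 24967251 counts, and the member with the fewest counts, Ndufs6, had at least 129 counts in each. Levels are given as counts per 1000000 (CPM) after TMM scaling, a correction for differences in library make-up, and are compared between libraries but not between genes, since transcript lengths were not used. Skeletal muscle markers were abundant in every library, with Acta1 at 41243 CPM or more, Ckm at 25492 CPM or more and Mb at 6365 CPM or more. The atrial marker Myl7 and the brown fat marker Ucp1 had 0 counts in all 8 libraries, while Myh6, a cardiac myosin, ranged from 3.28 to 127 CPM. Libraries that stood apart were Sham replicate 5, whose complex I levels were close to those of MI, MI replicate 1, which was uneven across the subunits, and Sham replicate 7, which was highest for immune cell markers. Counts are therefore also given without them.

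Most subunit transcripts were slightly more abundant in MI than in Sham, and none of these differences passed the test. The log2 fold change was above 0 for 31 of 33 members, against 48.7% of the 10522 genes tested. The median log2 fold change of the members was 0.17, a level 12.6% higher, with a range of -0.25 to 0.30, while the median over all genes tested was -0.0070. By edgeR's quasi-likelihood test with Benjamini-Hochberg adjustment, 0 of 33 members were called, and 0.0% of all genes. The lowest adjusted p of a member was 0.601. Before adjustment, p was under 0.05 for 14 members, each higher in MI: Ndufa1, Ndufa2, Ndufa4, Ndufa8, Ndufa11, Ndufa12, Ndufb2, Ndufb5, Ndufb9, Ndufc2, Ndufs4, Ndufs5, Ndufs8 and Ndufv2. Of all genes, 8.14% had such a p, 3.67% with MI higher and 4.47% with MI lower. DESeq2 also called 0 members with 16 at an unadjusted p under 0.05, and limma-voom gave the same pair of counts. Of all genes, 3.76% by DESeq2 and 3.87% by limma-voom had such a p with MI higher.

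All 33 members passed the filter on low counts, and most have high counts, so genes with high counts are a closer background. Among the 1421 genes averaging 100 CPM or more, 63.8% had a log2 fold change above 0, the median log2 fold change was 0.047, and 7.88% had an unadjusted p under 0.05 with MI higher. The members lay above this background on each measure, as a description of a list that was chosen with earlier results of these data known. In bulk tissue, more cells of a type and more RNA per cell cannot be told apart.

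**Figure D1:**
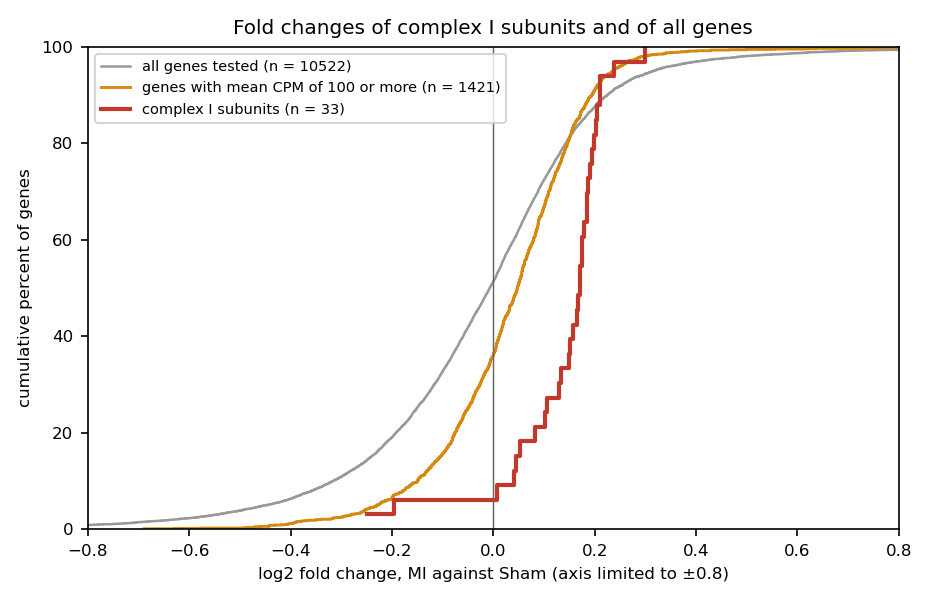
Cumulative percent of genes (y axis) by log2 fold change of MI against Sham (x axis, limited to ±0.8) for all 10522 genes tested, the 1421 genes averaging 100 CPM or more and the 33 complex I subunits. The curve of the subunits stays near the bottom until 0 and then climbs within 0.30, around a median of 0.17, while the curve of all genes crosses 0 near its middle.

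How many members had a low unadjusted p depended on which libraries entered. The count of members with an unadjusted p under 0.05 was 18 without Sham replicate 5, 4 without MI replicate 1 and 2 without Sham replicate 7, when only Ndufb5 and Ndufs5 were left. It was 11 without MI replicate 2, 7 without MI replicate 3, 8 without MI replicate 4 and 5 without Sham replicate 8. Without Sham replicate 6 it was 5, of which 4 were higher in MI and 1, Ndufv3, was lower. The share of all genes with such a p and MI higher also moved, to 3.76% without Sham replicate 5, 2.48% without MI replicate 1 and 1.97% without Sham replicate 7. In the same way it was 4.36%, 4.08% and 2.39% without MI replicates 2, 3 and 4, and 3.09% and 2.65% without Sham replicates 6 and 8. The direction was steadier: 29 to 31 members stayed above 0 and the median stayed between 0.13 and 0.20 whichever library was left out.

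The N module members sit at the tip of the peripheral arm. Of its 10 members, 8 had a log2 fold change above 0, with a median of 0.15. Ndufv2, a core subunit with an iron-sulphur cluster close to the flavin, stood at 1436, 1371, 1381 and 1355 CPM in MI replicates 1 to 4 and at 1351, 1168, 1140 and 1172 CPM in Sham replicates 5 to 8. Every MI library lay above every Sham library, but Sham replicate 5 came within a few CPM of the lowest MI library. The log2 fold change of Ndufv2 was 0.20 ± 0.08 (SE, n = 4 each; edgeR adjusted p = 0.601). Ndufs1, the core subunit that carries several clusters of the electron chain, had 1775, 2241, 1912 and 2142 CPM in MI against 1985, 1880, 1742 and 1766 CPM in Sham. The groups overlapped, with MI replicate 1 as low as the lower Sham libraries, and the log2 fold change was 0.13 ± 0.09 (edgeR adjusted p = 0.702). It was 0.072 without MI replicate 2 and 0.18 without MI replicate 1.

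Ndufv1, the core subunit that binds NADH and the flavin FMN, was 1 of only 2 members with a negative value. Its levels were 394, 701, 719 and 581 CPM in MI and 673, 664, 715 and 693 CPM in Sham. The 4 Sham libraries were close together. MI replicates 2 and 3 lay within or just above them, MI replicate 4 lay below them, and MI replicate 1 far below. The log2 fold change was -0.20 ± 0.16 (SE, n = 4 each; edgeR adjusted p = 0.739), and without MI replicate 1 it was -0.046. The other negative member was Ndufv3, an accessory subunit at the same tip, with 57.3, 69.5, 70.2 and 72.5 CPM in MI and 73.8, 66.7, 79.6 and 100.6 CPM in Sham. Its groups overlapped, and Sham replicate 8 was the highest. The log2 fold change of Ndufv3 was -0.25 ± 0.13 (edgeR adjusted p = 0.639), and -0.12 without Sham replicate 8.

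Among the accessory N module members, Ndufs4, which helps to fix the module to the rest of the arm and is a known Leigh syndrome gene, had 522, 463, 479 and 522 CPM in MI and 484, 399, 403 and 431 CPM in Sham. Only Sham replicate 5 reached into the MI range. The log2 fold change of Ndufs4 was 0.21 ± 0.08 (edgeR adjusted p = 0.601). Ndufa2, a small subunit with a thioredoxin-like fold, had 110.5, 102.9, 104.2 and 105.2 CPM in MI and 103.8, 91.1, 87.6 and 92.1 CPM in Sham, and here too Sham replicate 5 alone overlapped with MI. Its log2 fold change was 0.18 ± 0.08 (edgeR adjusted p = 0.601). The remaining 4 accessory members of the module, Ndufa6, Ndufa7, Ndufa12 and Ndufs6, ranged from 0.04 for the zinc-binding Ndufs6 to 0.17 for Ndufa12.

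**Figure D2:**
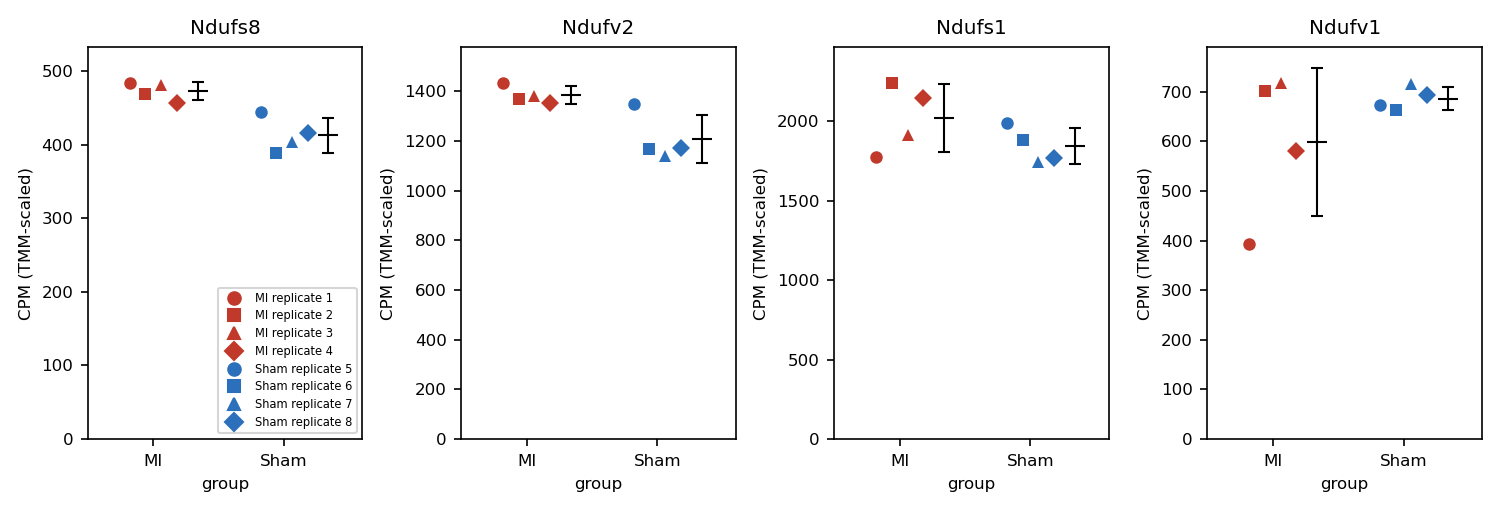
TMM-scaled CPM (y axis, from 0) of the core subunits Ndufs8, Ndufv2, Ndufs1 and Ndufv1 in each MI and Sham library, with the mean and SD of each group as bars (n = 4 each). The MI points of Ndufs8 and Ndufv2 lie above the Sham points, while in Ndufs1 and Ndufv1 the groups overlap and MI replicate 1 is the lowest MI point, at 1775 and 394 CPM.

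The Q module joins the N module to the membrane and holds the quinone site. Each of its 6 members had a log2 fold change above 0, with a median of 0.16. Ndufs8, a core subunit with iron-sulphur clusters, had 484, 469, 481 and 457 CPM in MI and 444, 388, 403 and 416 CPM in Sham. Every MI library lay above every Sham library, and the log2 fold change was 0.20 ± 0.07 (SE, n = 4 each; edgeR adjusted p = 0.601). Ndufs3, a core subunit on which the module is built early in assembly, had 681, 665, 668 and 695 CPM in MI and 672, 587, 565 and 591 CPM in Sham. Sham replicate 5 lay among the MI libraries of Ndufs3 and the other 3 Sham libraries below them, and the log2 fold change was 0.17 ± 0.08 (edgeR adjusted p = 0.608).

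Ndufs7, a core subunit that carries the last iron-sulphur cluster before ubiquinone, had 617, 579, 628 and 522 CPM in MI and 609, 558, 537 and 570.5 CPM in Sham, with MI replicate 4 the lowest of all 8 libraries. Its log2 fold change was 0.05 ± 0.08 (edgeR adjusted p = 0.885), and 0.012 to 0.097 with 1 library left out. The accessory members Ndufa5 and Ndufa9 had values of 0.15 and 0.17, the latter for a subunit that binds a nicotinamide nucleotide.

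The proximal membrane arm had the highest median, 0.20, with 6 of 6 members above 0 and 5 of them at an unadjusted p under 0.05, where 3.67% of all genes had such a p with MI higher. Of these 5, Ndufa1 and Ndufs5 remained without MI replicate 1, and Ndufs5 alone without Sham replicate 7. Ndufs5, an accessory subunit on the face towards the intermembrane space, had the largest log2 fold change of the 33 members. It stood at 35.3, 34.1, 33.1 and 30.6 CPM in MI and at 28.1, 23.5, 30.03 and 26.6 CPM in Sham. The groups did not overlap, although MI replicate 4 lay only just above Sham replicate 7, and the log2 fold change was 0.30 ± 0.10 (SE, n = 4 each; edgeR adjusted p = 0.601). Ndufa1, a small X-linked membrane subunit needed for assembly, had 130.4, 119, 120 and 119 CPM in MI and 114, 106, 100.3 and 104 CPM in Sham. MI replicate 1 was set apart above the other MI libraries of Ndufa1, the groups did not overlap, and the log2 fold change was 0.21 ± 0.07 (edgeR adjusted p = 0.601). Ndufa8, Ndufa11 and Ndufc2 lay between 0.17 and 0.21, and Ndufa10, which resembles a nucleoside kinase, was at 0.05.

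All 10 members of the distal membrane arm had a log2 fold change above 0, with a median of 0.17. Ndufb5, a membrane-spanning accessory subunit, had the smallest p of the 33 members. Its levels were 985, 842, 857 and 904 CPM in MI and 805, 759, 731 and 745 CPM in Sham. All 4 MI libraries were above all 4 Sham libraries, and the log2 fold change was 0.24 ± 0.08 (SE, n = 4 each; edgeR adjusted p = 0.601). The other members of this arm ranged from 0.08 for Ndufb6 to 0.19 for Ndufb3, which was at 0.078 without MI replicate 1. Ndufb2 and Ndufb9 also had an unadjusted p under 0.05. Ndufa4 carries a complex I name but is now counted with cytochrome c oxidase (complex IV). It had 835, 731, 775 and 779 CPM in MI and 719.8, 687, 657 and 677 CPM in Sham, which did not overlap. For Ndufa4 the log2 fold change was 0.19 ± 0.07 (edgeR adjusted p = 0.601). Without Ndufa4 the median of the remaining 32 members was 0.17.

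**Figure D3:**
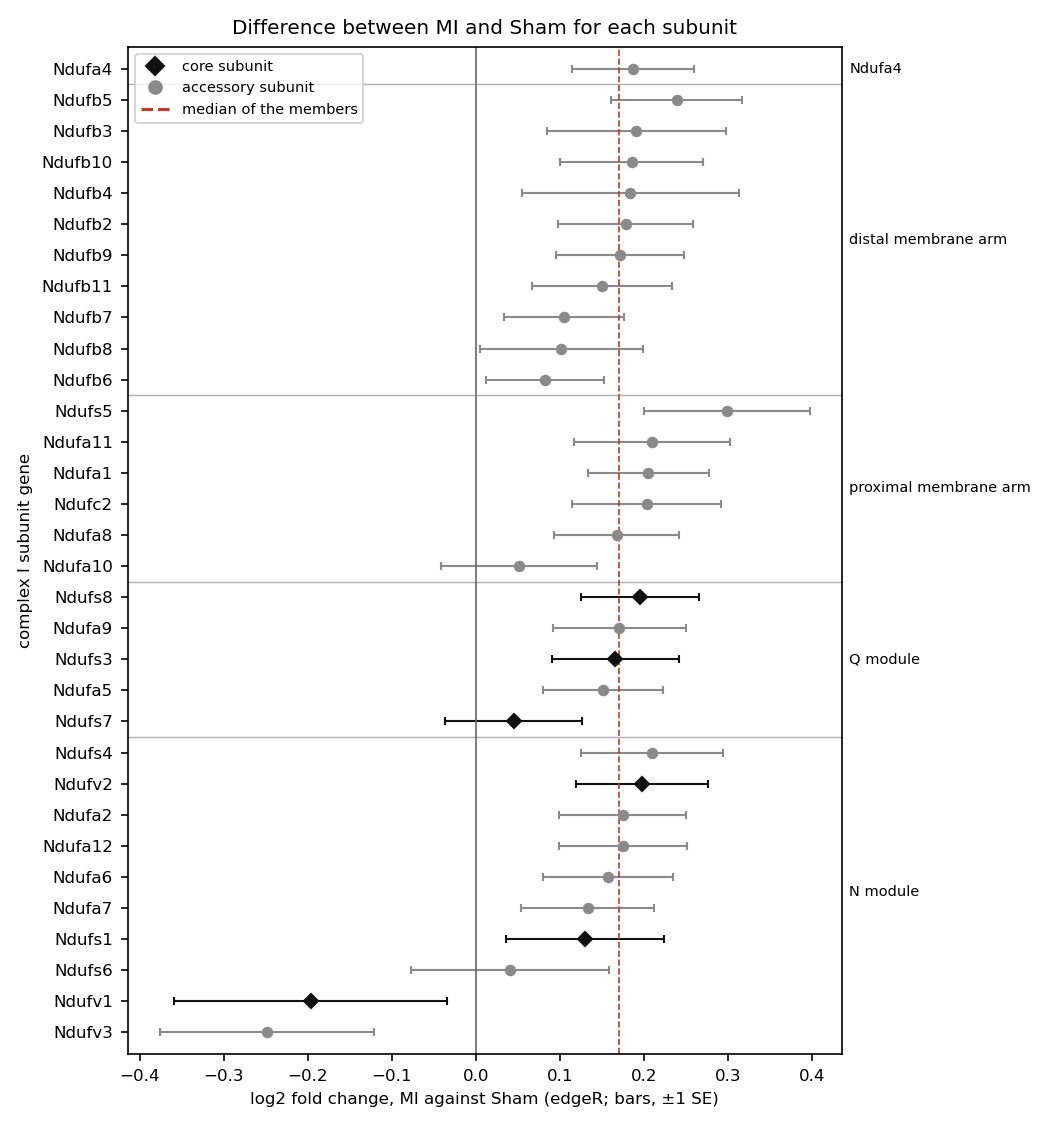
Log2 fold change of MI against Sham (x axis) with 1 SE on either side for 32 complex I subunits, grouped by place in the complex, with diamonds for core and circles for accessory subunits. All of those shown but Ndufv1 and Ndufv3, at -0.20 and -0.25, lie to the right of 0, and most lie near the dashed median of 0.17.

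Promoters are shown for 4 of these genes: Ndufb5 and Ndufs5, with the smallest p of the members, and the core genes Ndufs8 and Ndufv1. They were chosen because the fold changes of most members were alike, while the last pair, near each other, had values of opposite sign. Ndufs8 and Ndufv1 start 161 kb apart on chromosome 1, with 11 protein-coding genes between them. Ndufs8 was among the members whose groups did not overlap, and Ndufv1 had a negative value, which was -0.046 without MI replicate 1. Neither was called, and a difference between these 2 genes was not tested. The sequences are the 250 bases before the annotated start from RefSeq on the GRCr8 assembly, read 5′ to 3′ on the gene's strand: chr2:117447355-117447604 on the plus strand for Ndufb5, chr5:141264403-141264652 on the minus strand for Ndufs5, chr1:210573699-210573948 on the minus strand for Ndufs8 and chr1:210734892-210735141 on the minus strand for Ndufv1. The counts were made on another build, rn5, so these places apply to the annotation only. Capitals mark a match to 1 of the motifs named next.
Ndufb5: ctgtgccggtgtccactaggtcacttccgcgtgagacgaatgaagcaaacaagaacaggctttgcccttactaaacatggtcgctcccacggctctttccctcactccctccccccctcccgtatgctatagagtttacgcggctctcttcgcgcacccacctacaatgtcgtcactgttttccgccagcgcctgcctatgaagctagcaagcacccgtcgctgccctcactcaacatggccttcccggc
Ndufs5: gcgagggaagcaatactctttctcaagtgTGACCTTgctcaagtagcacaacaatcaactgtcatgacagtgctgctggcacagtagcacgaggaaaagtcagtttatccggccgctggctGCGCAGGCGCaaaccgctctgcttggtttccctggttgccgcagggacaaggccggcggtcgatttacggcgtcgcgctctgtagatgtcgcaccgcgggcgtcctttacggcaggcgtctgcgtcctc
Ndufs8: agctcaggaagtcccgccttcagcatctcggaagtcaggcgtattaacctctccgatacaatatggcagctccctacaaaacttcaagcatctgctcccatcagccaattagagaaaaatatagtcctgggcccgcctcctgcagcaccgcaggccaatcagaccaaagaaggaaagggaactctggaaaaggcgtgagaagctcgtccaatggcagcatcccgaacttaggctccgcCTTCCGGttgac
Ndufv1: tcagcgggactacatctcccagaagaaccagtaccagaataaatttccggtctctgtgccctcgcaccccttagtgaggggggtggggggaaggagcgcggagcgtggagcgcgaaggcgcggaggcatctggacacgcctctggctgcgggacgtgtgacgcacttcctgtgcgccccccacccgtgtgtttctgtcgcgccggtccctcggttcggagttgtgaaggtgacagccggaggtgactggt

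The motifs were searched on both strands from 250 bases before to 50 after the start, in the 30 of 33 members that had an entry. The NRF1 motif (GCGCA, any base, then GCGC), of a regulator of nuclear genes for mitochondria, was in 7 of 30 member promoters (23.3%), against 9.88% of 8232 tested genes with an entry and 4.25% of all 33469 promoters. The YY1 motif AAGATGGC was also in 7 (23.3%, against 5.62% and 3.17%). The motif of ETS factors, CCGGAAG, was in 6 (20.0%, against 17.4% and 8.75%), that of oestrogen-related receptors (ERR), AAGGTCA, in 4 (13.3%, against 2.83% and 4.61%), and the cAMP response element (CRE) TGACGTCA in 2 (6.67%, against 3.15% and 1.83%). None of these letter strings contains another. Among the promoters shown, Ndufs5 held an NRF1 and an ERR match, Ndufs8 an ETS match, and Ndufb5 and Ndufv1 none of the 5. Both Ndufs5, with the highest value, and Ndufv3, with the lowest, held the NRF1 letters. A match is only a run of letters and was not tested against the fold changes.

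Core and accessory subunits were close to each other. The median log2 fold change was 0.13 for the 7 core members, of which 6 were above 0 and 2 had an unadjusted p under 0.05. It was 0.17 for the 26 accessory members, Ndufa4 included, with 25 above 0 and 12 at such a p. The order of these medians turned without MI replicate 1, at 0.158 for core and 0.127 for accessory members, and without MI replicate 2 they were 0.072 and 0.183. Within each library, the mean log2 CPM of core minus that of accessory members was 1.87, 2.20, 2.16 and 2.09 in MI and 2.14, 2.18, 2.18 and 2.13 in Sham. The 4 Sham libraries lay within a narrow band, MI replicates 1 and 4 fell below it, and MI replicate 2 lay just above it. The mean was 2.08 ± 0.15 in MI and 2.16 ± 0.03 in Sham (SD, n = 4 each), a difference of -0.08 that was smaller than the spread in MI. Leaving Ndufv1 out of the core brought the difference to -0.025. With all 7 core members, the difference was -0.0062 without MI replicate 1 and -0.12 without MI replicate 2.

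**Figure D4:**
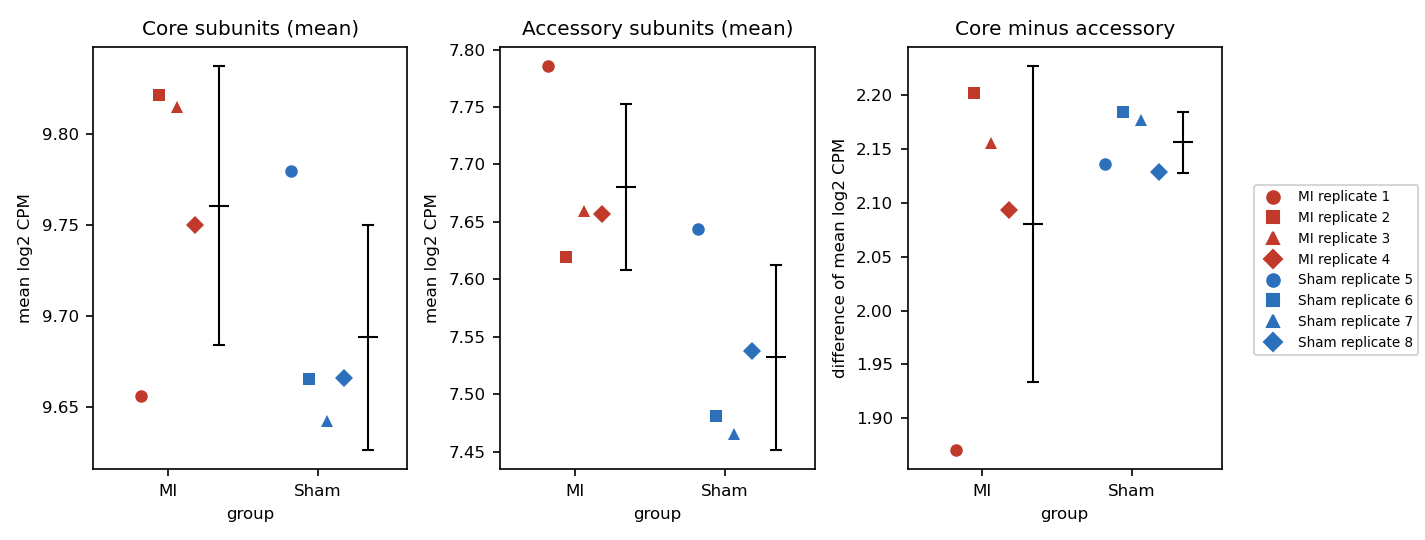
Mean log2 CPM of the 7 core subunits, of the 26 accessory subunits and their difference (y axes, not starting at 0) in each MI and Sham library, with group means and SDs as bars (n = 4 each). MI replicate 1 is the lowest MI library for the core and the highest for the accessory subunits, which puts its difference at 1.87 when the other libraries lie between 2.09 and 2.20.

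Over the 33 members, the mean log2 CPM was 8.18, 8.09, 8.12 and 8.10 in MI and 8.10, 7.94, 7.93 and 7.99 in Sham. Sham replicate 5 lay between MI replicates 2 and 4, so the groups overlapped, and the other 3 Sham libraries lay below all MI libraries. The group means were 8.12 ± 0.04 and 7.99 ± 0.08 (SD, n = 4 each), a difference of 0.13. Added up, the members took 16100, 16001, 15902 and 16084 CPM in MI and 15687, 14323, 14023 and 14387 CPM in Sham. By this sum, in which members with the most counts weigh most, the groups did not overlap, and Sham replicate 5 was again the Sham library nearest to MI.

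Every MI library lay above every Sham library for 6 of 33 members (Ndufb5, Ndufs5, Ndufa1, Ndufs8, Ndufa4 and Ndufv2), against 2.09% of all genes tested and 4.22% of those with at least 100 CPM. No member had all MI libraries below Sham, where 2.46% of all genes did. Sham replicate 5 was the highest Sham library for 26 members. Without it the count of members that did not overlap was 23, against 5.39% of all genes. Leaving out any other single library gave 6 to 10 members, against 2.95% to 4.64% of all genes. MI replicate 2 exceeded Sham replicate 5 in only 14 of 33 members, MI replicate 3 in 19, MI replicate 4 in 21 and MI replicate 1 in 27, while each MI library exceeded each of the other Sham libraries in 28 to 31.

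MI replicate 1 was uneven across the complex. It was the highest MI library for 22 members and the lowest for 4. Relative to the Sham mean of each gene, its log2 values ran from -0.80 for Ndufv1 to 0.47 for Ndufb3, with an SD over members of 0.26, where the other 7 libraries had SDs of 0.06 to 0.13. The same library had the lowest level of Sdha, the flavin subunit of complex II, at 1718 CPM against 2037 to 2291 CPM in the others. The other complex II genes differed: Sdhc and Sdhd were highest in it, at 1831 and 1742 CPM. Sdhb, at 1567 CPM, lay within the range of the other libraries. MI replicate 1 was lowest for the slow myosin Myh7, at 2282 CPM against 3200 to 5612 CPM elsewhere. For the fast myosin Myh4 it was highest, at 3698 CPM against 11.4 to 2082 CPM. Other fibre genes differed: the fast myosin Myh2 was lowest in it, at 2978 CPM against 5495 to 6289 CPM. Its mean log2 CPM of slow fibre genes was 10.35, against 10.24 to 10.67 elsewhere, and of fast fibre genes 12.30, against 11.04 to 12.44. The part of these genes in its complex I values was not tested.

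**Figure D5:**
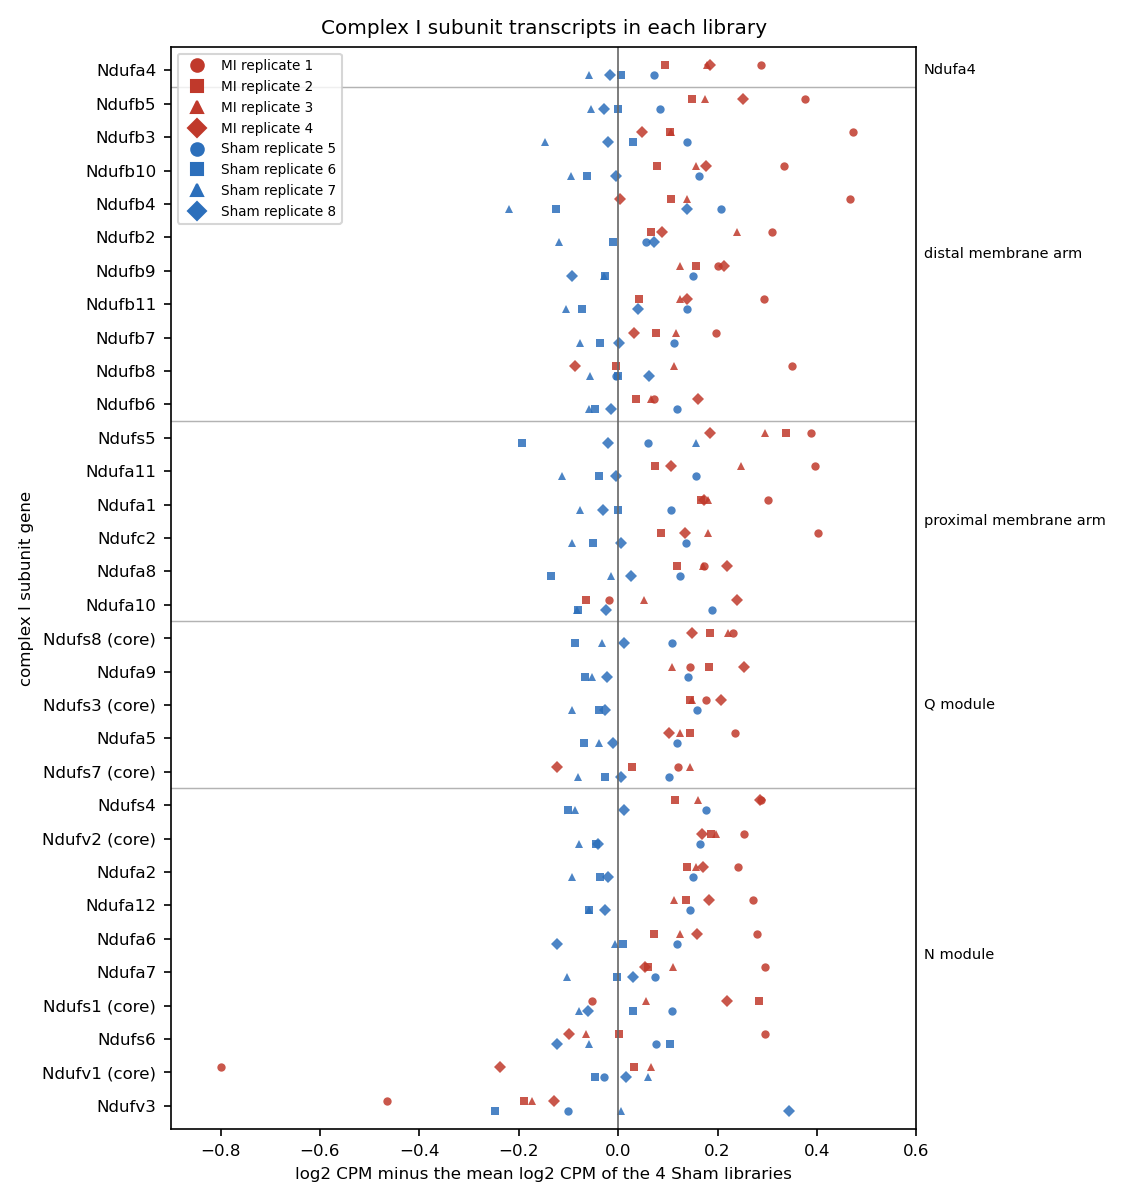
Log2 CPM of 32 complex I subunits in each library minus the mean of the 4 Sham libraries (x axis), grouped by place in the complex, with MI libraries in red and Sham libraries in blue. Most red points lie right of 0, the blue circle of Sham replicate 5 often lies among them, and MI replicate 1 reaches from -0.80 for Ndufv1 to 0.47 for Ndufb3.

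The spread within groups was small. The median coefficient of variation of the members was 6.98% in Sham and 7.10% in MI, against 12.3% and 14.1% over all genes tested and 7.98% and 8.89% for genes with at least 100 CPM. It was under 10% for 30 of 33 members in Sham and for 24 in MI. Animals fell in a lower and a higher range of identification numbers, whose meaning the labels do not give. In the lower range, with MI replicates 1 and 2 against Sham replicate 5, the MI mean was above Sham for 27 of 33 members, and the median log2 ratio was 0.055 (51.7% of all genes were higher). In the higher range, with MI replicates 3 and 4 against Sham replicates 6 to 8, it was above Sham for 30 members, with a median of 0.20 (48.7% of all genes). With the range as a term in the fit, 4 members kept an unadjusted p under 0.05 (Ndufa1, Ndufb5, Ndufs5 and Ndufs8), each higher in MI, where 2.68% of all genes had such a p with MI higher.

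The other respiratory complexes had medians close to that of complex I, and edgeR called 0 of their genes. The log2 fold change was above 0 for 10 of 10 complex IV genes tested (median 0.20), 13 of 14 ATP synthase genes (0.16), 7 of 8 complex III genes (0.18) and 3 of 4 complex II genes (0.12). Cox5a, a complex IV subunit, had 0.31 ± 0.08 (edgeR adjusted p = 0.601). DESeq2 called Cox5a, with an adjusted p of 0.0400, and no other gene of these 4 complexes. The acyl carrier subunit Ndufab1, which also serves mitochondrial fatty acid synthesis, had 0.27 ± 0.08 (edgeR adjusted p = 0.601). Of 14 complex I assembly genes tested, 11 were above 0 with a median of 0.10, led by Tmem70 at 0.26 ± 0.07 (edgeR adjusted p = 0.601). Genes of mitochondrial mass and its regulators, such as citrate synthase and Ppargc1a, were above 0 in 6 of 12 with a median of 0.02, and 0 of them had an unadjusted p under 0.05. Genes that pass electrons to ubiquinone by other routes were above 0 in 3 of 5, with a median of 0.02.

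Markers of other cells and of fibre type were set beside these values. Genes of skeletal muscle fibres in general were above 0 in 1 of 7, with a median of -0.13, and summed to 96947 to 127393 CPM in MI and 106741 to 128581 CPM in Sham. Slow fibre genes were above 0 in 4 of 8 (median 0.02) and fast fibre genes in 5 of 9 (0.06). Their summed levels overlapped between groups, at 18691 to 21019 CPM in MI and 16884 to 23419 CPM in Sham for slow genes, and 47080 to 72826 CPM and 51106 to 74561 CPM for fast genes. The list that stood farthest from 0 was that of red blood cells, with 7 of 8 above 0, a median of 1.10, and 7 at an unadjusted p under 0.05, and summed to 559 to 972 CPM in MI and 424 to 523 CPM in Sham. Of them edgeR called 0 and DESeq2 called 5 (Hba1, Hba2, Hbb, Hbb-b1 and Alas2). Macrophage genes were above 0 in 0 of 6 (median -0.33) and summed to 74.9 to 129 CPM in MI and 81.0 to 196 CPM in Sham. Lymphocyte genes, 0 of 3 above 0 (median -0.33), summed to 7.01 to 12.4 CPM in MI and 6.73 to 29.6 CPM in Sham. Sham replicate 7, without which the fewest members kept an unadjusted p under 0.05, was the highest library for both immune lists. Adipocyte genes were above 0 in 4 of 5 (median 0.26), at 198 to 409 CPM in MI and 162 to 237 CPM in Sham, fibroblast genes in 3 of 5 (0.14), at 1805 to 3261 CPM and 1673 to 2338 CPM, and endothelial genes in 4 of 4 (0.050), at 177 to 247 CPM and 184 to 212 CPM. Heart muscle genes were above 0 in 1 of 3 (median -0.30), at 53.9 to 151 CPM and 17.7 to 103 CPM. The 6 cytosolic ribosomal protein genes, a sign of library make-up, were all above 0 with a median of 0.17, equal to that of complex I at this precision, and summed to 1189 to 1350 CPM in MI and 1165 to 1245 CPM in Sham. The part of these cells, fibre types and library make-up in the complex I values was not tested.

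Near-identical copies can share or take reads. Copies were sought by gene name alone, and their likeness in sequence to the member was not measured. All 33 members matched a current RefSeq symbol, and 17 of them have a named copy or pseudogene in that list, most of all Ndufb4 with 11. The 16 members without one had a median log2 fold change of 0.17, with 15 above 0, and the 17 with one had a median of 0.18. The names Ndufs6 and Ndufa10 are also older names of a pseudogene and of a related gene, so the identity of these rows is less certain.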

How the data were processed

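Libraries came from total RNA of snap-frozen diaphragm. The SMARTer kit used keeps no strand, so overlapping or antisense transcripts cannot be told apart. The deposited values are the authors' raw counts of reads for each gene symbol and animal. The submitters' processing notes name rn5 as the build and list Cufflinks, TopHat, TopHat2, STAR 2.5.0a and bcl2fastq. Which program counted the reads, on which annotation, was not given in the sources used here.

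All 17055 rows were fitted together with edgeR 4.0.16 (R 4.3.3): filterByExpr by group, TMM scaling and the robust two-sided quasi-likelihood test, with Benjamini-Hochberg adjustment over 10522 genes and a threshold of 0.05. Each edgeR SE is the absolute log2 fold change divided by the square root of the F statistic of that test. Mean log2 CPM used a prior count of 2. The fit was tested on simulated data. Alternatives were RLE scaling, library totals alone, DESeq2 1.42.0, no filter, at least 1 CPM in 4 libraries as the filter, limma 3.58.1 (voom) with and without sample weights, no robust estimation, a threshold of 0.1, the number range as a term, a prior count of 0.5, and each library left out.

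The members and lists were chosen with earlier results of these data known. Values in every library are given for the core subunits, the 6 accessory members with the smallest p, the 3 members with the lowest fold change and Ndufa4. From other lists, Cox5a, Tmem70 and Ndufab1 have the smallest p of their list. Other genes outside the members were named after their values were seen. Of the genes this rule picks, 1 is not reported here, although counts and medians over members include it.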

Additional observations from a re-analysis of the deposited data

Results flagged for a closer look

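In each group of 4 libraries, the highest and lowest value of 32 members were checked for a gap to the next library that exceeded Dixon's critical value as a share of the group's range. Chance flags about 1 in 20 groups, and 64 groups of member values were checked. MI replicate 1 was set apart as the highest MI library for Ndufb3, at 113.6 CPM, and for Ndufa1, at 130.4 CPM. Sham replicate 5 was set apart as the highest Sham library for Ndufv2, at 1351 CPM, and for Ndufa12, at 120.1 CPM.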

How the results depend on the processing

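Under 18 alternatives, 0 members were called, and the lowest adjusted p of a member in any of them was 0.288. The number of members above 0 stayed at 29 to 31. The median log2 fold change of the members was 0.13 to 0.20 with a library left out and 0.15 to 0.18 under the other alternatives. That of core members was 0.07 to 0.16 and that of accessory members 0.13 to 0.21 with a library left out. Scaling by another method moved the median of all genes by less than 0.01.

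The number of members with an unadjusted p under 0.05 was 8 with library totals alone, 9 with no filter on low counts, 4 with the number range as a term, and 2 to 18 with a library left out. The share of all genes with such a p and MI higher was 2.84%, 2.9% and 2.68% in the first 3 of these settings. It was 1.97% to 4.36% with a library left out. DESeq2 called 14 of all genes (0.133%), none of them a member, 5 of them red blood cell genes and 1 of them Cox5a, and leaving out a library gave 0 to 1 by edgeR. The number of members with every MI library above every Sham library was 6 to 23 with a library left out, against 2.95% to 5.39% of all genes. That alternative was chosen after seeing the data. The cause was not tested in any of these.

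The sign held in all 17 alternatives for 30 of the 32 members reported singly. Ndufs6 was at -0.010 with the number range as a term and between -0.063 and 0.083 with a library left out. Ndufa10 lay between -0.013 and 0.11 with a library left out. No paired analysis was possible because the groups share no replicate number. With 4 animals a group, the median SE of a member was 0.08, beside a median difference of 0.17.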
